A study of Mus musculus with 62 samples.

Results

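Brain endothelial cells line the vessels of the cerebellum and form the blood-brain barrier, and 39 genes of these cells were followed here in cerebellum RNA from mice carrying melanoma. The 39 genes were listed by name and fall into these roles: 6 genes of cell junctions, 6 growth factor receptors and their partners, 7 adhesion and surface molecules, 8 transporters, 3 arterial genes, 4 transcription factors and 5 other endothelial genes. All 39 were found among the 47643 gene symbols of the deposited table, and all 39 were among the 14399 symbols abundant enough to be tested (a mean of at least 1 TPM, the unit that scales the transcripts of a library to a total of 1000000). None of the 39 was at 0 in any library.

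Female mice, 2 months old by the labels, were injected with cachectic melanoma cells (CAC), which cause wasting in the host, with non-cachectic melanoma cells (NCAC), or received a mock injection. Cerebella were taken 2, 4, 6 and 8 weeks (wk) later, giving 12 groups of 5 libraries each, except CAC at 8 wk with 7. The libraries are called biological replicates, but no label ties one to a named animal, so p-values measure the spread between these libraries. The labels disagree on the mice: the sample fields name C57BL6/J, and the series design names NCI Ath/nude, a background whose athymic hosts have few mature T cells, so the state of the host's immune system is not settled. Groups follow the sample descriptions, because the treatment field names cachectic cells in every sample, mock included.

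Brain endothelial cells differ from other endothelia. They seal the space between cells with tight junctions, carry few vesicles across, and move glucose, amino acids, lactate and lipids through dedicated transporters, while efflux pumps return foreign compounds to the blood. Vascular endothelial growth factor receptors and the angiopoietin receptor system maintain the vessel wall, and canonical Wnt signalling keeps the barrier programme on. Activated endothelium displays adhesion molecules that white blood cells bind.

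In libraries from all groups together, the most abundant of these transcripts was Slc2a1, the glucose transporter GLUT1, with a mean of 111 TPM and a range of 76.3 to 177.7 TPM. Itm2a followed at 79.6 TPM, the large neutral amino acid transporter gene Slc7a5 at 63.2 TPM, Ly6c1 at 60.4 TPM and the tight junction gene Cldn5 at 50.4 TPM. The scarcest were Bmx at 1.48 TPM and Lef1 at 1.78 TPM. TPM divides by transcript length, so these levels can be compared between genes, but it keeps no sequencing depth, which is therefore unknown. The share of mitochondrially encoded transcripts was 17.14% to 22.19% in single libraries, no pair of libraries was identical, and the highest correlation between libraries was 0.99486. The table's RNA comes from whole tissue, where fewer endothelial cells and less RNA per cell cannot be told apart.

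Fold changes below are differences of group means of log2(TPM + 1), with standard errors (SE), from a limma fit across all 12 groups. On this scale the changes of scarce transcripts come out too small. A gene is called when its p-value, adjusted by the Benjamini-Hochberg method over all 14399 genes of a comparison, is under 0.05.

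At 8 wk the cachectic tumour went with both higher and lower levels among the 39 genes. Against mock, 10 were higher and 7 lower, 17 in all, where 20.8% of all tested genes were called (13.4% higher and 7.34% lower). Against NCAC, 14 were higher and 4 lower, 18 in all, where 11.8% of all tested genes were called (7.76% higher and 4.01% lower). The surface and adhesion genes Vwf, Ly6c1 and Podxl and the transporter genes Slc2a1 and Mfsd2a rose, and the growth factor receptor gene Kdr and the arterial gene Gkn3 fell. The median fold change of the 39 genes was 0.04 against mock, beside 0.02 over all tested genes, and 0.12 against NCAC, beside 0.02. Both comparisons use the same 7 CAC libraries, so they are not independent of each other. Of the 39 genes, 12 were called in both, 5 against mock alone, 6 against NCAC alone and 16 in neither. The share of all tested genes called in both is not given here, so nothing is read from this overlap.

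**Figure D1:**
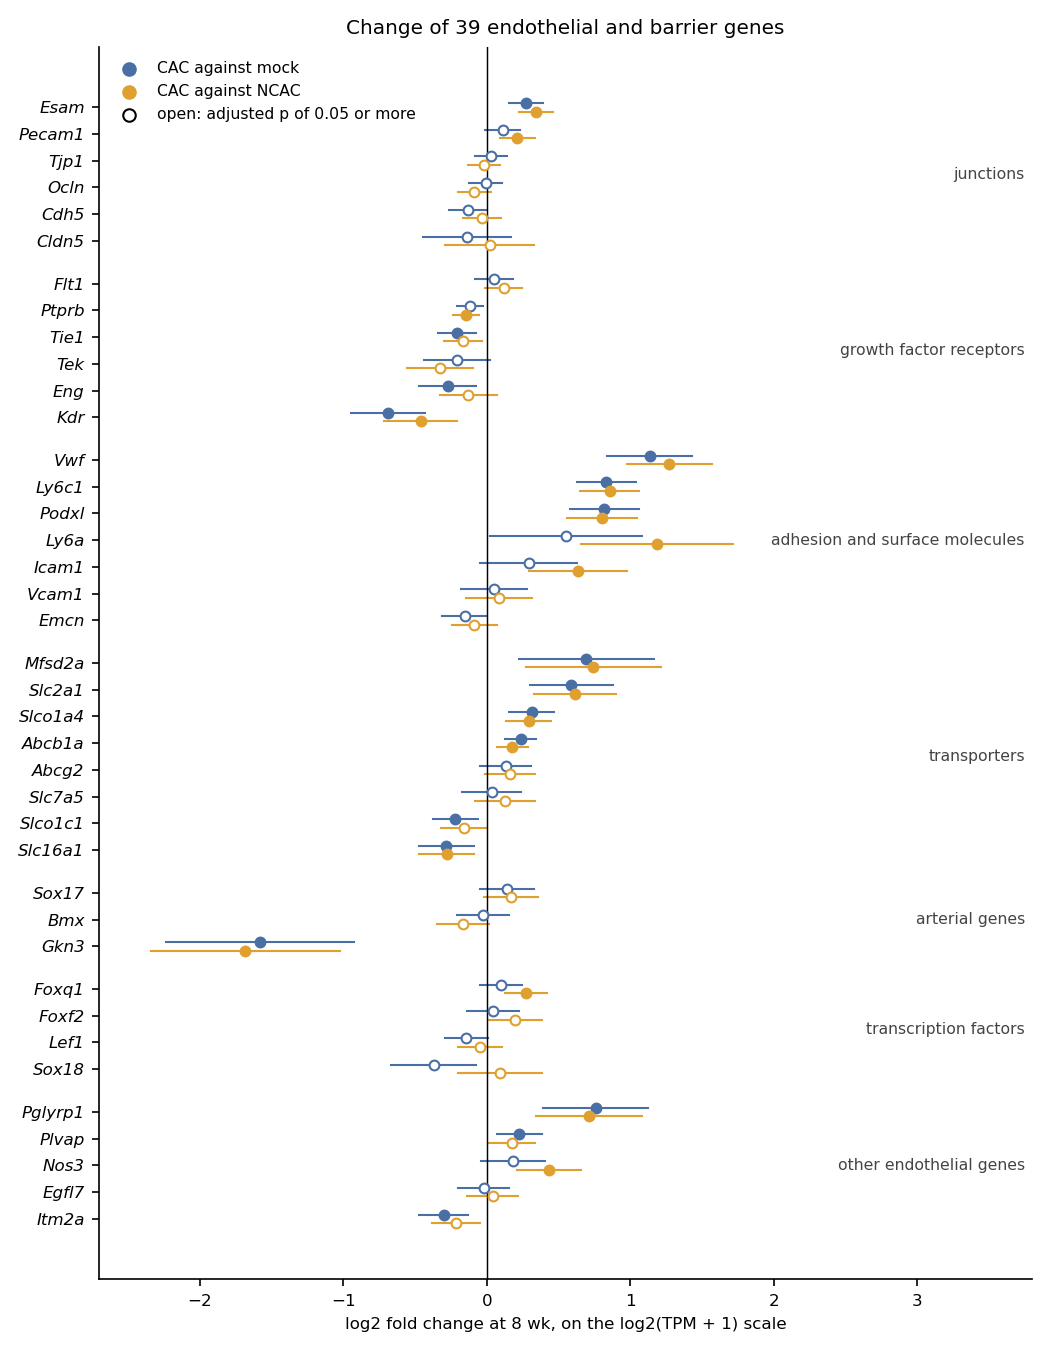
Log2 fold change at 8 wk (x axis, on the log2(TPM + 1) scale) of each of the 39 genes, grouped by role, for CAC against mock (blue) and CAC against NCAC (yellow). Points are limma estimates with 95% confidence intervals, filled where the adjusted p was under 0.05. Vwf, Ly6c1, Podxl and Pglyrp1 lie to the right and Gkn3 and Kdr to the left in both comparisons, while most junction genes lie near 0. The transcription factors lie between -0.37 (Sox18 against mock) and 0.28 (Foxq1 against NCAC).

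Among the adhesion and surface molecules, 3 of 7 were higher against mock at 8 wk and 5 of 7 against NCAC, with role medians of 0.55 and 0.80. Vwf encodes von Willebrand factor, the clotting glycoprotein that endothelial cells store and release. Its 7 CAC libraries at 8 wk lay at 9.90 to 18.3 TPM with a median of 13.2. The 5 mock libraries stood at 5.45, 5.45, 4.78, 5.51 and 8.20 TPM, and the 5 NCAC libraries at 5.07, 5.49, 4.80, 5.11 and 5.47 TPM. All 7 CAC libraries were above every mock and every NCAC library, even though mock replicate 5 was well above the other mock libraries. The log2 fold change was 1.14 ± 0.15 (SE) against mock, with an adjusted p of 4.15e-07, and 1.27 ± 0.15 against NCAC, with an adjusted p of 5.31e-08.

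Ly6c1 encodes a small GPI-anchored surface protein of brain endothelium. At 8 wk its CAC libraries ranged from 62.8 to 112 TPM with a median of 94.3, with mock libraries at 46.2, 50.3, 55.8, 53.1 and 48.4 TPM and NCAC libraries at 52.3, 51.1, 50.4, 50.98 and 44.8 TPM. The groups did not overlap, and the fold changes were 0.83 ± 0.10 against mock with an adjusted p of 1.22e-07, and 0.86 ± 0.10 relative to NCAC with an adjusted p of 8.63e-08. Ly6c1 has a near-identical neighbour gene, and how the authors assigned reads shared between copies is not given in the sources used here, so its level is uncertain to that extent.

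Podxl encodes podocalyxin, a heavily charged sialomucin of the surface facing the blood. The CAC libraries at 8 wk lay at 24.3 to 49.2 TPM with a median of 30.3. Mock libraries held 18.9, 18.9, 20.6, 17.9 and 16.2 TPM and NCAC libraries 17.6, 19.4, 18.5, 21.2 and 16.9 TPM. Again no library of the other groups reached the lowest CAC library. The fold change was 0.82 ± 0.12 against mock with an adjusted p of 4.07e-06, and 0.80 ± 0.12 relative to NCAC with an adjusted p of 9.13e-06. Podxl varied more among the CAC libraries than among the controls: means and standard deviations (SD) were 34.3 ± 9.28 TPM (n = 7) in CAC, 18.5 ± 1.59 TPM (n = 5) in mock and 18.7 ± 1.68 TPM (n = 5) in NCAC.

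Libraries without overlap at 8 wk were found for 4 of the 39 genes against mock, namely Vwf, Ly6c1, Podxl and Slc2a1. All 4 were higher in CAC, where 3.24% of all tested genes were higher without overlap. Against NCAC there were 6, these 4 with Ly6a and Pglyrp1, beside 1.94% of all tested genes. None of the 39 was lower without overlap in either comparison, where the share over all genes was 1.25% against mock and 0.653% against NCAC.

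Ly6a, the stem cell antigen Sca-1, which endothelial cells also carry, was split between the comparisons. CAC libraries at 8 wk ranged from 16.4 to 31.7 TPM with a median of 28.3. Mock libraries stood at 14.3, 13.5, 21.9, 9.72 and 26.8 TPM and NCAC libraries at 9.05, 12.8, 9.99, 8.15 and 11.2 TPM. Mock replicates 3 and 5 lay inside the CAC range, whereas all NCAC libraries lay below it. The fold change against NCAC was 1.18 ± 0.26 (adjusted p = 0.00184). Against mock it was 0.55 ± 0.26, with an adjusted p of 0.128 and a 95% confidence interval of 0.02 to 1.08. Icam1 lay at 3.43 to 10.3 TPM in CAC, 3.13 to 7.44 TPM in mock and 2.21 to 4.05 TPM in NCAC libraries at 8 wk. Icam1, whose product binds white blood cell integrins, followed the same split, with group means of 5.97 against 3.35 TPM in CAC and NCAC (0.64 ± 0.17, adjusted p = 0.00891) and 5.97 against 4.64 TPM in CAC and mock (0.29 ± 0.17, adjusted p = 0.223). Against NCAC the Icam1 call was lost under 2 of 20 alternatives (highest adjusted p 0.0753), among them single removal of NCAC replicate 4, where an alternative is another choice of processing or 1 library left out.

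Mock replicate 5 at 8 wk held the highest mock values of Vwf, Icam1 and Ly6a, at 8.20, 7.44 and 26.8 TPM. In the same library the summed level of 8 lymphocyte markers was 545 TPM, where the other 4 mock libraries summed to between 6.21 and 20.6 TPM and the 7 CAC libraries to between 5.81 and 9.85 TPM. The part of this library's lymphocyte transcripts in the 3 endothelial values was not tested. Without it, the adjusted p against mock was 0.0573 for Ly6a and 0.0592 for Icam1. Vcam1 and Emcn, an adhesion receptor and a sialomucin of the vessel surface, were called in neither comparison, with fold changes against mock of 0.05 and -0.15 and intervals of -0.18 to 0.28 and -0.31 to 0.00.

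**Figure D2:**
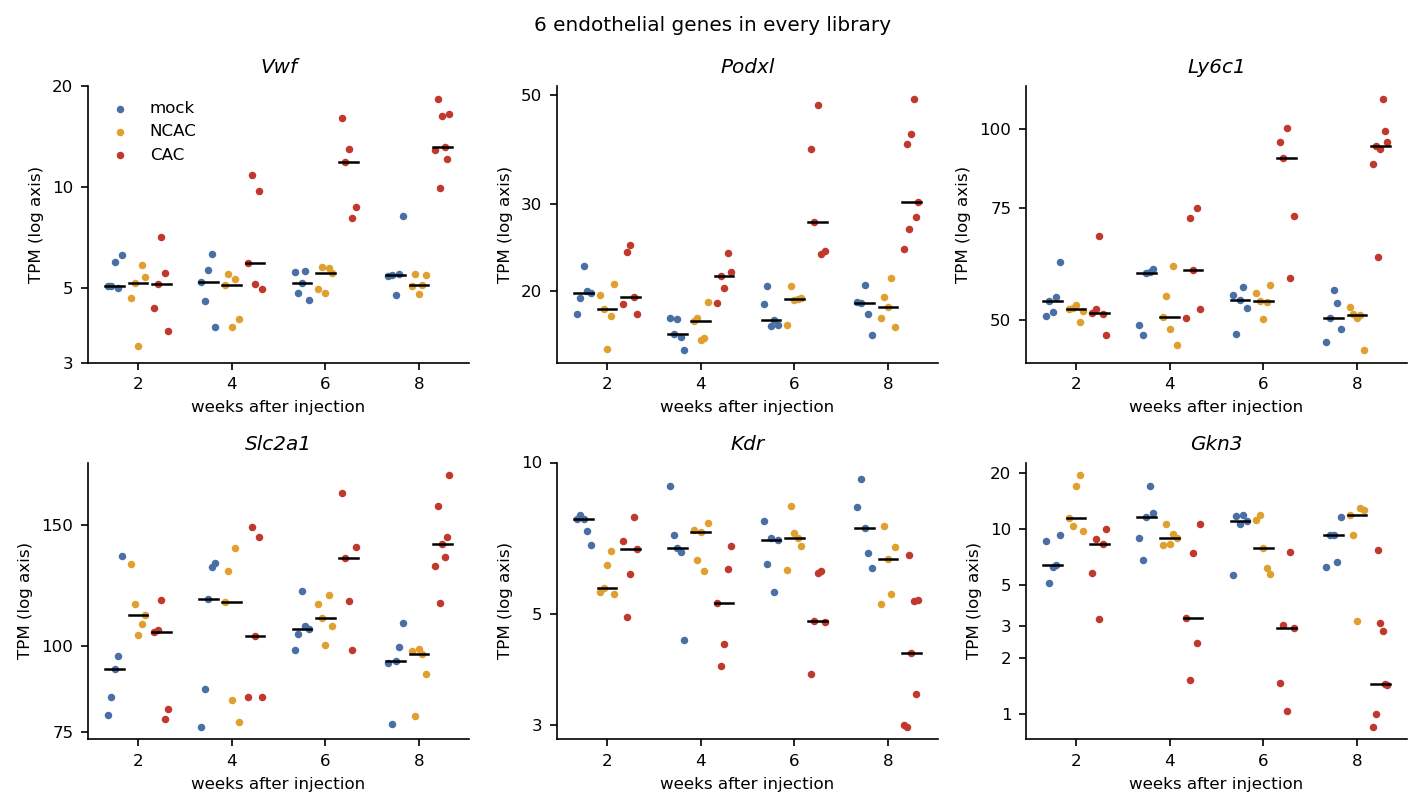
TPM (log axis) of Vwf, Podxl, Ly6c1, Slc2a1, Kdr and Gkn3 in every library (points) by weeks after injection, for mock (blue), NCAC (yellow) and CAC (red), with a black bar at each group's median. The CAC points of Vwf, Podxl and Ly6c1 leave the control range at 6 and 8 wk, with Vwf medians of 11.9 and 13.2 TPM, while those of Kdr and Gkn3 fall, with a Gkn3 median of 1.46 TPM at 8 wk.

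Transporters changed in both directions: 4 of 8 were higher and 2 lower against mock at 8 wk, and 4 were higher and 1 lower against NCAC. Slc2a1 lay at 116 to 178 TPM with a median of 141 in the 7 CAC libraries. In mock libraries it stood at 94.5, 76.9, 95.1, 99.7 and 108 TPM and in NCAC libraries at 98.2, 79.1, 98.97, 97.2 and 91.2 TPM. The lowest CAC library exceeded the highest of both controls, and the fold change was 0.59 ± 0.14 against mock with an adjusted p of 0.00238, and 0.62 ± 0.14 relative to NCAC with an adjusted p of 0.00294, or 1.51-fold and 1.53-fold.

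Mfsd2a, which carries lysophosphatidylcholine with docosahexaenoic acid into the brain and holds vesicle transport down, ranged from 12.4 to 37.2 TPM with a median of 31.8 in CAC at 8 wk. Mock libraries had 16.8, 13.2, 18.4, 17.4 and 21.8 TPM and NCAC libraries 15.7, 12.3, 25.1, 18.4 and 14.4 TPM. CAC replicate 3, at 12.4 TPM, was below every mock library, and the other 6 CAC libraries, from 29.7 TPM upward, were above every mock and NCAC library. The fold change was 0.69 ± 0.23 against mock with an adjusted p of 0.0288, and 0.74 ± 0.23 relative to NCAC with an adjusted p of 0.0288. The Mfsd2a call against mock was lost under 7 of 22 alternatives (highest adjusted p 0.115), among them single removal of CAC replicates 5, 6 and 7 and of mock replicates 1 and 2. Against NCAC it was lost under 10 of 21 alternatives (highest adjusted p 0.131), among them single removal of CAC replicates 1, 2, 5, 6 and 7 and of NCAC replicates 1, 2 and 5.

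Slco1a4 and Abcb1a, an organic anion transporter gene and the gene of the efflux pump P-glycoprotein, rose by less. Slco1a4 averaged 54.95 against 43.8 TPM in CAC and mock (0.31 ± 0.08, adjusted p = 0.00305) and Abcb1a 27.3 against 23.1 TPM (0.24 ± 0.05, adjusted p = 0.00112), with overlapping libraries in both. Slco1a4 lay at 45.6 to 64.3 TPM in CAC, 38.7 to 46.2 TPM in mock and 40.1 to 49.4 TPM in NCAC libraries at 8 wk. Abcb1a lay at 24.5 to 28.8 TPM in CAC, 19.2 to 24.7 TPM in mock and 22.7 to 25.6 TPM in NCAC libraries at 8 wk. Against NCAC the fold changes were 0.29 (adjusted p = 0.00957) and 0.18 (adjusted p = 0.0223). The Abcb1a call against NCAC was lost under 8 of 21 alternatives (highest adjusted p 0.107), among them single removal of CAC replicate 6 and of NCAC replicates 1, 4 and 5. Slc16a1 lay at 33.7 to 51.9 TPM in CAC, 41.1 to 55.7 TPM in mock and 42.7 to 49.5 TPM in NCAC libraries at 8 wk, and Slco1c1 lay at 35.1 to 47.6 TPM in CAC, 45.1 to 50.97 TPM in mock and 40.5 to 50.4 TPM in NCAC libraries at 8 wk. Slc16a1, the lactate and ketone body transporter MCT1, was lower in CAC, with means of 38.98 against 47.5 TPM in CAC and mock (-0.28 ± 0.10, adjusted p = 0.0288), and relative to NCAC it stood at -0.28 (adjusted p = 0.0465). The Slc16a1 call against mock was lost under 7 of 22 alternatives (highest adjusted p 0.174), among them single removal of CAC replicates 1, 6 and 7 and of mock replicates 1 and 2, and that against NCAC under 12 of 21 alternatives (highest adjusted p 0.252), among them single removal of CAC replicates 1, 2, 5, 6 and 7 and of NCAC replicates 1, 2, 3 and 5. Slco1c1, the thyroxine transporter OATP1C1, was lower against mock (-0.22 ± 0.08, adjusted p = 0.0394) and was not called against NCAC (-0.16, adjusted p = 0.183). The Slco1c1 call was lost under 9 of 22 alternatives (highest adjusted p 0.131), among them single removal of CAC replicates 1, 2 and 6 and of mock replicates 1, 3 and 4. Slc7a5 and the efflux pump gene Abcg2 were called in neither comparison, and the 95% intervals against mock were -0.17 to 0.24 and -0.05 to 0.31.

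Growth factor receptors and their partners moved down where they moved: 3 of 6 were lower and none higher against mock, 2 of 6 lower and none higher against NCAC, and the role medians were -0.21 and -0.15. Kdr encodes VEGFR2, the main signalling receptor for vascular endothelial growth factor. At 8 wk the CAC libraries held 2.98 to 6.54 TPM with a median of 4.18, the mock libraries 8.17, 9.26, 7.42, 6.62 and 6.17 TPM and the NCAC libraries 5.24, 7.47, 6.42, 5.48 and 6.78 TPM. CAC replicate 3 was the highest CAC library and the only one inside the mock range. The fold change was -0.69 ± 0.13 against mock with an adjusted p of 1.25e-04, and -0.46 ± 0.13 relative to NCAC with an adjusted p of 0.0126. The latter call was lost under 2 of 21 alternatives (highest adjusted p 0.111), among them single removal of NCAC replicate 2.

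Eng and Tie1, the coreceptor endoglin and an orphan partner of the angiopoietin receptor, were lower against mock, by smaller amounts. Eng lay at 13.2 to 21.5 TPM in CAC, 18.7 to 20.9 TPM in mock and 16.6 to 19.4 TPM in NCAC libraries at 8 wk. Tie1 lay at 4.04 to 5.67 TPM in CAC, 5.14 to 6.41 TPM in mock and 5.01 to 6.82 TPM in NCAC libraries at 8 wk. Eng averaged 16.6 against 19.98 TPM (-0.27 ± 0.10, adjusted p = 0.0384) and Tie1 5.05 against 5.98 TPM (-0.21 ± 0.07, adjusted p = 0.0185). The Eng call was lost under 11 of 22 alternatives (highest adjusted p 0.115), among them single removal of CAC replicates 1, 2, 4 and 6 and of mock replicates 1, 2, 4 and 5. For Tie1 this was so under 5 of 22 alternatives (highest adjusted p 0.0964), among them single removal of CAC replicate 1 and of mock replicates 1 and 3. Against NCAC neither was called (-0.13 and -0.16, adjusted p = 0.442 and 0.0914). Ptprb lay at 14.03 to 16.6 TPM in CAC, 15.8 to 18.2 TPM in mock and 15.5 to 18.1 TPM in NCAC libraries at 8 wk. Ptprb, the vascular phosphatase VE-PTP that acts on the angiopoietin receptor, was lower against NCAC (-0.14 ± 0.05, adjusted p = 0.0289) and had an adjusted p of 0.0512 against mock, at -0.12. Its call against NCAC was lost under 8 of 21 alternatives (highest adjusted p 0.123), among them single removal of CAC replicates 5 and 6 and of NCAC replicates 1, 2, 4 and 5. Tek, the angiopoietin receptor TIE2, was called in neither comparison (-0.21 and -0.33, adjusted p = 0.199 and 0.0515). Rescaling the libraries added calls: after quantile normalization as after median-of-ratios scaling, 4 of 6 receptors were lower against NCAC, since Tek (adjusted p = 0.0242 and 0.0294) and Tie1 (adjusted p = 0.0256 and 0.0472) then passed. Ptprb then passed against mock as well (adjusted p = 0.0135 and 0.0189). Flt1, a high-affinity VEGF receptor, had a fold change of 0.05 against mock, with an interval of -0.08 to 0.18.

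Of the 3 arterial genes, Gkn3 alone was called. Gkn3 encodes a gastrokine that marks arterial endothelium in mouse brain. The CAC libraries at 8 wk ranged from 0.856 to 7.70 TPM with a median of 1.46. Mock libraries stood at 6.25, 9.23, 9.29, 6.63 and 11.5 TPM and NCAC libraries at 11.9, 9.28, 3.16, 12.9 and 12.6 TPM. Replicate 3 was again the exception among the CAC libraries, inside the mock range, while the other 6 were at or below 3.12 TPM, and 1 NCAC library stood at 3.16 TPM. The fold change of -1.58 ± 0.33 against mock (adjusted p = 4.14e-04) was the largest in size among the 39 genes in that comparison, and against NCAC it was -1.68 ± 0.33 (adjusted p = 4.59e-04). The other arterial genes did not follow: Bmx, a kinase gene of arterial endothelium, was at -0.03 against mock with an interval of -0.21 to 0.15, and Sox17, a transcription factor gene needed for arterial identity, at 0.14 with an interval of -0.05 to 0.33.

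Of 6 junction genes, 1 passed against mock and 2 against NCAC, and the role medians were 0.01 and 0.00. Cldn5, the main claudin of the barrier, lay at 36.4 to 77.3 TPM with a median of 42.5 in CAC, 60.2, 66.3, 53.6, 51.5 and 36.7 TPM in mock and 45.5, 57.3, 48.5, 41.3 and 44.4 TPM in NCAC. These ranges overlapped widely, with fold changes of -0.14 ± 0.15 against mock (adjusted p = 0.572, interval -0.45 to 0.17) and 0.02 ± 0.15 against NCAC (adjusted p = 0.956). For Ocln and Tjp1, genes of occludin and the scaffold protein ZO-1, the intervals against mock were narrow, -0.12 to 0.11 and -0.08 to 0.14. Cdh5, the gene of VE-cadherin, had a fold change of -0.13 and an adjusted p of 0.165. Esam, an immunoglobulin-like adhesion molecule at endothelial junctions, was the exception, higher in CAC in both comparisons.

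Esam ranged from 15.9 to 20.6 TPM with a median of 19.2 in CAC at 8 wk, with mock libraries at 14.6, 16.3, 15.9, 15.8 and 13.6 TPM and NCAC libraries at 14.4, 16.8, 13.6, 13.6 and 14.1 TPM. The lowest CAC library, replicate 3, fell inside the mock range. The fold change was 0.27 ± 0.06 against mock with an adjusted p of 5.25e-04, and 0.34 ± 0.06 relative to NCAC with an adjusted p of 7.28e-05. Pecam1 lay at 14.04 to 17.5 TPM in CAC, 13.8 to 15.6 TPM in mock and 12.7 to 14.7 TPM in NCAC libraries at 8 wk. Pecam1, the platelet and endothelial adhesion molecule CD31, was higher against NCAC (0.21 ± 0.06, adjusted p = 0.0143) and not called against mock (0.11, adjusted p = 0.191). The Pecam1 call was lost under 2 of 21 alternatives (highest adjusted p 0.0789), among them single removal of NCAC replicate 4.

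No transcription factor gene passed against mock. Foxq1 lay at 4.25 to 5.71 TPM in CAC, 4.20 to 5.39 TPM in mock and 3.60 to 4.61 TPM in NCAC libraries at 8 wk. Foxq1, a forkhead gene of brain endothelium, was higher against NCAC (0.28 ± 0.07, adjusted p = 0.00827). This call was lost under 2 of 20 alternatives (highest adjusted p 0.0619). Sox18, which acts with Sox17 in vessel development, had means of 9.60 against 11.98 TPM in CAC and mock (-0.37, adjusted p = 0.0633) and spread in CAC from 4.41 to 15.7 TPM. Sox18 passed against mock with median-of-ratios scaling (adjusted p = 0.0457) and quantile normalization (adjusted p = 0.0411). Lef1, a nuclear effector of Wnt signalling, and Foxf2, a forkhead gene of pericytes and endothelium, had fold changes of -0.14 and 0.04.

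Of the 5 other endothelial genes, Pglyrp1, which encodes a peptidoglycan recognition protein, was higher in both comparisons. Its CAC libraries at 8 wk ranged from 13.5 to 29.03 TPM with a median of 18.6, with mock at 10.6, 7.88, 15.4, 8.33 and 14.04 TPM and NCAC at 13.1, 8.33, 13.3, 12.9 and 9.61 TPM. The CAC libraries were above all NCAC libraries and overlapped mock replicates 3 and 5. The fold changes were 0.76 ± 0.18 against mock with an adjusted p of 0.00219, and 0.71 ± 0.18 relative to NCAC with an adjusted p of 0.00671. Plvap lay at 39.1 to 53.7 TPM in CAC, 37.3 to 44.8 TPM in mock and 37.5 to 44.7 TPM in NCAC libraries at 8 wk. Plvap, the diaphragm protein of fenestrated and leaky vessels, was slightly higher against mock, at 46.4 against 39.4 TPM (0.23 ± 0.08, adjusted p = 0.0329), and was not called against NCAC (0.18, adjusted p = 0.144). The Plvap call was lost under 12 of 22 alternatives (highest adjusted p 0.0896), among them single removal of CAC replicates 1 and 6 and of mock replicates 1, 3, 4 and 5. They include rescaling of the libraries, with an adjusted p of 0.052 under median-of-ratios scaling and 0.0678 under quantile normalization.

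Itm2a lay at 50.7 to 85.8 TPM in CAC, 76.4 to 84.04 TPM in mock and 61.3 to 86.9 TPM in NCAC libraries at 8 wk. Itm2a, a membrane protein gene enriched in brain endothelium, was lower against mock, at 66.1 against 80.6 TPM (-0.30 ± 0.08, adjusted p = 0.00763), and relative to NCAC it stood at -0.21 (adjusted p = 0.0865, or 0.0429 with quantile normalization). Its call against mock was lost under 2 of 22 alternatives (highest adjusted p 0.075). Nos3 lay at 5.66 to 10.7 TPM in CAC, 6.00 to 7.73 TPM in mock and 4.82 to 6.35 TPM in NCAC libraries at 8 wk. Nos3, the endothelial nitric oxide synthase gene, was higher against NCAC (0.44 ± 0.11, adjusted p = 0.00633) and at 0.18 against mock (adjusted p = 0.242). The Nos3 call against NCAC was lost under 1 of 21 alternatives (highest adjusted p 0.101). Egfl7, a secreted factor of vessels, did not pass in either comparison, with an interval against mock of -0.20 to 0.16.

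CAC replicate 3 at 8 wk stood apart from the other 6 CAC libraries in several of these genes. It had the lowest Vwf, Ly6c1, Mfsd2a and Slc2a1 of its group, at 9.90, 62.8, 12.4 and 116 TPM, the highest Kdr and Gkn3, at 6.54 and 7.70 TPM, and the highest Icam1, at 10.3 TPM. Its summed level over the list of 5 markers of red blood cells was 20417 TPM, against 128 to 2334 TPM in the other CAC libraries, and the part of blood carried over in its values was not tested. With this library and mock replicate 5 both left out, a choice made after seeing the data, 18 of the 39 genes were called against mock, 10 higher and 8 lower. The share of all tested genes called in that fit is not given here, so nothing is read from this count. Mfsd2a was then at 0.96 (adjusted p = 0.00212), Kdr at -0.83 (adjusted p = 7.31e-06), Gkn3 at -1.72 (adjusted p = 1.51e-04) and Ly6a at 0.82 (adjusted p = 0.0305), while Plvap was lost (adjusted p = 0.0528).

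RefSeq promoter sequences (build GRCm38.p6, which is mm10, 250 bases before to 50 after the annotated start) were available in the table used for 25 of the 39 genes. Promoters of 4 genes with small p-values against mock at 8 wk are shown, those of Ly6c1 and Slc2a1, which were higher, and of Kdr and Gkn3, which were lower, each read 5′ to 3′ on the gene's strand. Capitals mark matches, on either strand, to 5 letter patterns: the core of ETS factors, which drive endothelial genes (AGGAAG), the core of the Wnt effectors LEF and TCF (CTTTGA), the glucocorticoid receptor half-site (AGAACA), the TATA box (TATAAA) and the GC box (GGGCGG). The patterns were chosen with the results known.
Ly6c1, chr15:75048788-75049087, minus strand: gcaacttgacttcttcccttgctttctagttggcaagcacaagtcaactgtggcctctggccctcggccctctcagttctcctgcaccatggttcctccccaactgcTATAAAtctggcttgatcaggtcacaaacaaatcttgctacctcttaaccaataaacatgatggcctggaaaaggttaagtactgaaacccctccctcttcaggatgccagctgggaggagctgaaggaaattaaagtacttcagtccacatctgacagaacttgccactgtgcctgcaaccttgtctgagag
Slc2a1, chr4:119108495-119108794, plus strand: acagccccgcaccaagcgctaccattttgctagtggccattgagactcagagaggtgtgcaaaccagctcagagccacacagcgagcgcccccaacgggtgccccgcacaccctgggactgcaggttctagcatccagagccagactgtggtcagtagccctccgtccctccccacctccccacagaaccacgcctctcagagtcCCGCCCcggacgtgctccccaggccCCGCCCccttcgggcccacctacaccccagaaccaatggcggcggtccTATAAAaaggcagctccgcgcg
Kdr, chr5:75978406-75978705, minus strand: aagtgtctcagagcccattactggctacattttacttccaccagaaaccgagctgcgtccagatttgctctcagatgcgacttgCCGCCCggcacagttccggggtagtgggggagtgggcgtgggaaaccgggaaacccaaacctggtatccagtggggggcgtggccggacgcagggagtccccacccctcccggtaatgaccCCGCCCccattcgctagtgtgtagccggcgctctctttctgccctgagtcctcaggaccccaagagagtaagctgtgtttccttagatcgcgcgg
Gkn3, chr6:87388886-87389185, minus strand: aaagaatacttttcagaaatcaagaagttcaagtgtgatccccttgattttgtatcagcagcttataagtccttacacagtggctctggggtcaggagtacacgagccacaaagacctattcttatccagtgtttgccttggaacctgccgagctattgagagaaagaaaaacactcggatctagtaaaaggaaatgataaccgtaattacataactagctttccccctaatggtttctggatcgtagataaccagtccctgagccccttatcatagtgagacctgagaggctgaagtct

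Slc2a1 has 2 GC boxes and a TATA box, Ly6c1 a TATA box and Kdr 2 GC boxes. The Gkn3 window holds none of the 5 patterns. The promoters differ in base composition too, from 42.7% G and C in Gkn3 to 65.3% in Slc2a1. Over the 25 promoters, 12 held an ETS core, 3 a LEF/TCF core, 2 a glucocorticoid receptor half-site, 6 a TATA box and 12 a GC box. Of all 32544 promoters of the same length, 35.1%, 16%, 18.9%, 13.6% and 35.9% held them. In 4 of the 25 (Abcb1a, Egfl7, Pglyrp1 and Tjp1) the RefSeq start lay over 1000 bases from the start of the GENCODE M21 gene, and over the other 21 the counts were 9, 1, 1, 6 and 10. A match is a description of letters in this window, not of factor binding.

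At 6 wk the same direction was seen for fewer genes. Against mock, 3 of the 39 genes were higher and 1 lower, where 1.72% of all tested genes were called (1.41% higher and 0.313% lower). Against NCAC, 5 were higher and 2 lower, where 9.45% were called (7.47% higher and 1.99% lower). Rescaling turned the second split around: under median-of-ratios scaling and under quantile normalization, 4 were higher and 5 lower. At 8 wk against NCAC it moved from 14 higher and 4 lower to 13 and 7 under quantile normalization. The split of all tested genes after rescaling is not given here, so these moves are not read as particular to the 39 genes.

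Vwf at 6 wk stood at 16.04, 11.9, 13.02, 8.11 and 8.75 TPM in CAC, 5.57, 4.85, 5.17, 5.62 and 4.60 TPM in mock and 4.96, 5.76, 4.82, 5.75 and 5.55 TPM in NCAC. All 5 CAC libraries exceeded all control libraries, with fold changes of 0.99 ± 0.16 against mock with an adjusted p of 3.09e-04, and 0.94 ± 0.16 relative to NCAC with an adjusted p of 7.57e-04. Podxl stood at 38.8, 27.5, 47.7, 23.8 and 24.1 TPM in CAC and did not reach above 20.5 TPM in either control. Its fold changes were 0.75 ± 0.13 (adjusted p = 7.44e-04) and 0.69 ± 0.13 (adjusted p = 0.00181). CAC replicates 1 and 3 were the highest in both genes.

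Ly6c1 at 6 wk was 95.5, 90.2, 101, 58.2 and 72.9 TPM in CAC, 54.9, 47.5, 53.8, 56.3 and 52.3 TPM in mock and 55.2, 53.5, 50.2, 53.3 and 56.8 TPM in NCAC. Replicate 4 was only just above the controls. The fold changes were 0.62 ± 0.11 (adjusted p = 0.00105) and 0.60 ± 0.11 (adjusted p = 0.00178). Gkn3 was 1.46, 3.04, 1.04, 7.46 and 2.90 TPM in CAC, 5.65, 11.7, 10.6, 11.9 and 11.1 TPM in mock and 11.1, 11.8, 7.92, 6.15 and 5.70 TPM in NCAC, so here CAC replicate 4 lay among the controls. It was lower by -1.57 ± 0.35 against mock with an adjusted p of 0.0143, and -1.33 ± 0.35 relative to NCAC with an adjusted p of 0.0161. Against mock, Gkn3 was no longer called without CAC replicate 1 (adjusted p = 0.0999), and against NCAC without CAC replicate 1 or 3 (adjusted p = 0.0706 and 0.058).

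Against NCAC alone, Slco1a4 (0.32 ± 0.08, adjusted p = 0.0145) and Abcb1a (0.19 ± 0.06, adjusted p = 0.0271) were higher and Kdr (-0.41 ± 0.14, adjusted p = 0.0471) was lower at 6 wk. Slco1a4 stood at 67.9, 64.8, 62.4, 55.9 and 57.1 TPM in CAC, above all libraries of both controls, and its adjusted p against mock was 0.0565. Abcb1a was not called under median-of-ratios scaling (adjusted p = 0.0883) or quantile normalization (adjusted p = 0.12). Without CAC replicate 1, the adjusted p was 0.181 for Kdr, 0.0665 for Slco1a4 and 0.139 for Abcb1a, and 3 genes in place of 7 were called against NCAC. The share of all tested genes called in that fit is not given here, so nothing particular to the endothelial genes is read from this drop. Leaving out CAC replicate 2 or 5 also cost Kdr its call, as did leaving out any of NCAC replicates 2 to 5. Abcb1a lost its call when CAC replicate 3 or any of NCAC replicates 2, 3 and 5 was left out. Over these further removals the highest adjusted p was 0.119 for Kdr and 0.0712 for Abcb1a. Libraries without overlap at 6 wk were found for 6 genes against mock, all higher in CAC (Vwf, Podxl, Ly6c1, Ly6a, Esam and Slco1a4), beside 2.43% of all tested genes. Against NCAC, Vwf, Podxl, Ly6c1 and Slco1a4 were higher without overlap, beside 5.59%, and Kdr was lower, beside 1.15%.

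At 2 and 4 wk none of the 39 genes was called by limma in CAC against either control, where at most 0.00694% of all tested genes were called. The number with an unadjusted p under 0.05 was 1 against mock and 7 against NCAC at 2 wk, and 11 against mock and 13 against NCAC at 4 wk. The share of all tested genes under this unadjusted limit is not given here, so no early change of the 39 genes is read from these counts. At 4 wk the CAC libraries differed among themselves. Vwf was 5.94, 10.9, 5.13, 9.76 and 4.96 TPM, with replicates 2 and 4 above all 10 control libraries and the other 3 among them. The same replicates were the highest in Ly6c1 (50.3, 72.3, 60.1, 75.2 and 52.02 TPM), Slc2a1 (84.3, 149, 104, 144 and 84.2 TPM) and Mfsd2a (15.7, 32.1, 24.7, 37.6 and 14.5 TPM) and the lowest in Gkn3 (3.32, 1.53, 7.40, 2.41 and 10.6 TPM). For Slc2a1 and Mfsd2a, NCAC replicates 2 and 4 were also the highest of their group, at 129 and 139 TPM for Slc2a1 and 32.7 and 31.6 TPM for Mfsd2a.

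Podxl at 4 wk was 18.8, 21.4, 20.2, 23.9 and 21.8 TPM in CAC and 17.6, 16.3, 17.5, 16.1 and 15.1 TPM in mock, without overlap (0.34 ± 0.13, adjusted p = 0.562), beside 0.583% of all tested genes. Cdh5 was lower without overlap against NCAC (-0.18 ± 0.07, adjusted p = 0.426), beside 0.465%. Neither passed the test.

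**Figure D3:**
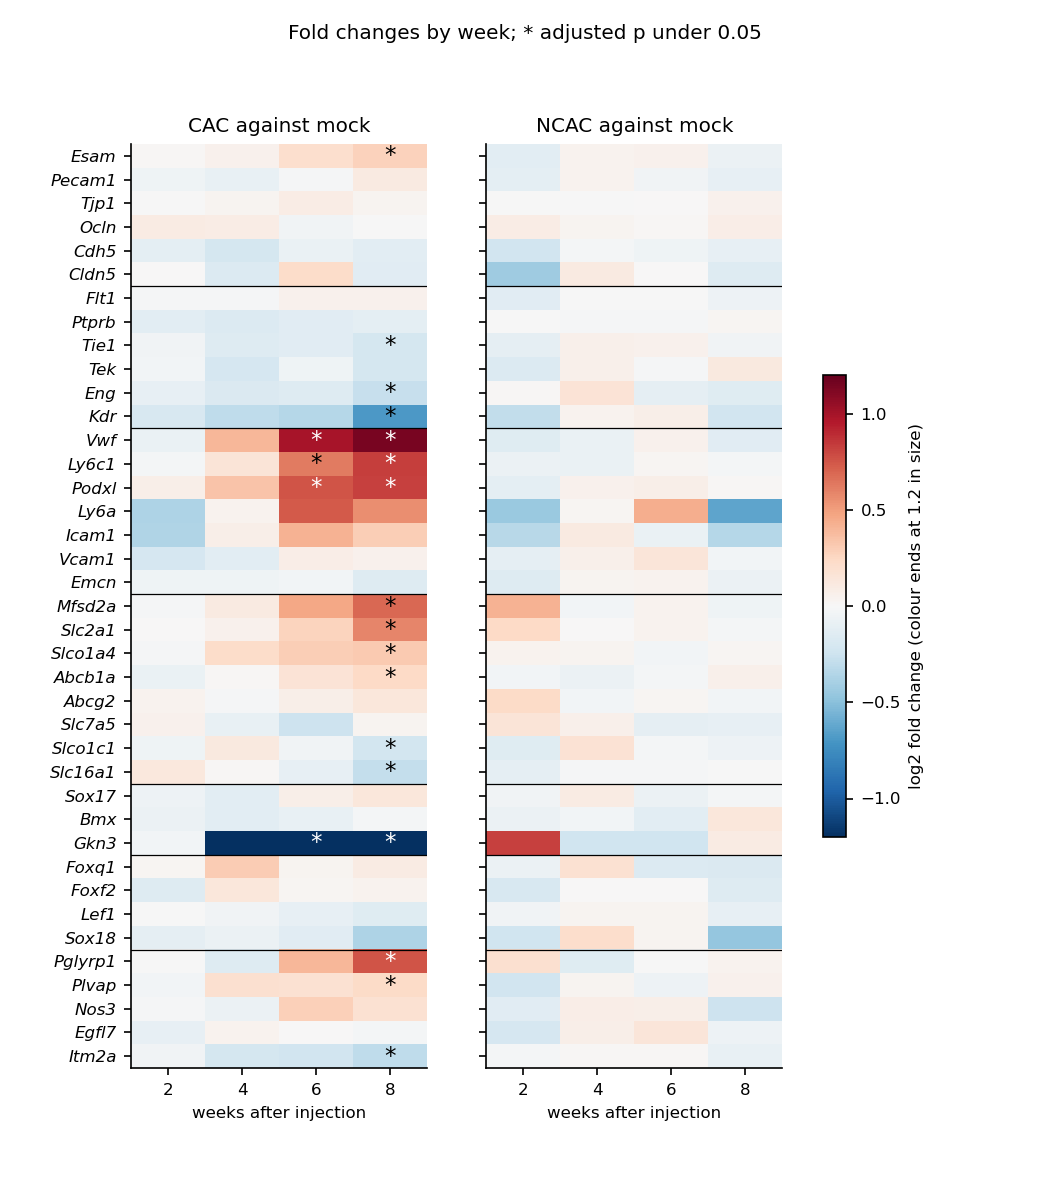
Log2 fold change of each of the 39 genes (rows, lines divide the roles in the order used above) at 2, 4, 6 and 8 wk after injection (columns), for CAC against mock (left) and NCAC against mock (right), red for higher and blue for lower, with stars where the adjusted p was under 0.05. Stars appear on the left only, 4 at 6 wk and 17 at 8 wk, and both panels use the same mock libraries.

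Whether CAC and mock differed more at 8 wk than at 2 wk was tested directly. It passed for 4 of the 39 genes, all towards higher values in CAC, where 1.55% of all tested genes were called (0.958% in this direction). Vwf had a change of 1.22 ± 0.22 (adjusted p = 0.00253), Ly6c1 of 0.85 ± 0.15 (adjusted p = 0.00253), Podxl of 0.75 ± 0.18 (adjusted p = 0.0247) and Abcb1a of 0.31 ± 0.08 (adjusted p = 0.0338). For Gkn3 the change was -1.55 ± 0.48 (adjusted p = 0.0776), for Slc2a1 0.59 ± 0.21 (adjusted p = 0.139) and for Kdr -0.49 ± 0.19 (adjusted p = 0.163), so a difference between the weeks was not shown for them. The count depends on single libraries: it was 9 without CAC replicate 3 of 8 wk and 2 without CAC replicate 1 of 2 wk. The share of all tested genes called in these fits is not given here, so this dependence is not read as particular to the endothelial genes. The Abcb1a change lost its call under 11 of 31 alternatives (highest adjusted p 0.109), among them single removal of CAC replicates 1 and 5 of 2 wk and of mock replicates 1, 2 and 5 of 2 wk and of CAC replicates 1 and 6 of 8 wk and of mock replicate 1 of 8 wk. The Podxl change lost it under 2 of 31 alternatives (highest adjusted p 0.0808), among them single removal of CAC replicate 1 of 2 wk.

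The non-cachectic tumour gave no called gene among the 39 in any week or over the mean of the 4 weeks by limma, where at most 0.0139% of all tested genes were called. The number with an unadjusted p under 0.05 was 7 at 2 wk, 2 at 4 wk, 1 at 6 wk, 4 at 8 wk and 1 for the mean. At 8 wk the largest difference was in Ly6a, with 10.2 against 17.2 TPM (-0.63 ± 0.29, adjusted p = 0.671), and the mean of Sox18 was 8.47 against 11.98 TPM (-0.46 ± 0.16, adjusted p = 0.588). Mock libraries at 8 wk against mock at 2 wk gave no called gene either, with 3 at an unadjusted p under 0.05. The median change over all 39 genes between those mock groups was -0.03. For the unadjusted counts of NCAC and mock, too, the share of all tested genes is not given here, and nothing is read from them.

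Some of the 39 genes varied together with Slc2a1 within the groups that carried no cachectic tumour. Deviations of log2(TPM + 1) from the group mean were correlated with those of Slc2a1 over the 20 mock and, separately, the 20 NCAC libraries, with 38 relations in each and p-values from 100000 permutations of libraries within weeks. Slc2a1 was chosen for this after its values were seen. Mfsd2a went with Slc2a1 in mock (Pearson r = 0.915, Spearman rho = 0.917), with a permutation p of 1e-05, the smallest these permutations can give, and an adjusted p of 3.8e-04. In NCAC the values for Mfsd2a were r = 0.872 and rho = 0.895, with an adjusted permutation p of 0.00798. Without the 2 libraries farthest from the median of Slc2a1, r was 0.9 and 0.855. Within single weeks, r for Mfsd2a ranged from 0.878 to 0.971 in mock and from 0.593 to 0.966 in NCAC.

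Slc16a1 went against Slc2a1, with r = -0.766 in mock and -0.793 in NCAC (rho = -0.839 and -0.732, adjusted permutation p = 0.00236 and 0.0363). Cldn5 did so in mock (r = -0.83, rho = -0.755, adjusted permutation p = 0.00228), and in NCAC r was -0.668 (rho = -0.615, adjusted permutation p = 0.0717). For Cldn5, r within single weeks ranged from -0.963 to -0.0335 in mock and from -0.935 to 0.186 in NCAC, so the relation was not seen in every week. Kdr had r = -0.694 and -0.594 (rho = -0.699 and -0.573, adjusted permutation p = 0.00228 and 0.0363), and Pglyrp1 r = 0.613 and 0.776 (rho = 0.627 and 0.808, adjusted permutation p = 0.0163 and 0.0184). These p-values are those of r, and for rho of Kdr in NCAC the adjusted permutation p was 0.0768. Within single weeks, r for Kdr ranged from -0.946 to -0.0805 in mock and from -0.848 to -0.304 in NCAC. For Pglyrp1 it ranged from -0.0848 to 0.975 and from 0.241 to 0.945. In mock, 6 genes passed with a positive and 4 with a negative r, and in NCAC 2 and 2. The share of all tested genes that varied with Slc2a1 in this way was not computed. Nothing particular to endothelial genes is therefore read from these counts. The mitochondrially encoded share of the library had an r with Slc2a1 of 0.244 in mock and 0.0372 in NCAC, and the mean of 10 choroid plexus markers 0.0769 and -0.0471. The libraries of a group share a tissue and a time point, and depth, which TPM does not keep, could not be compared.

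**Figure D4:**
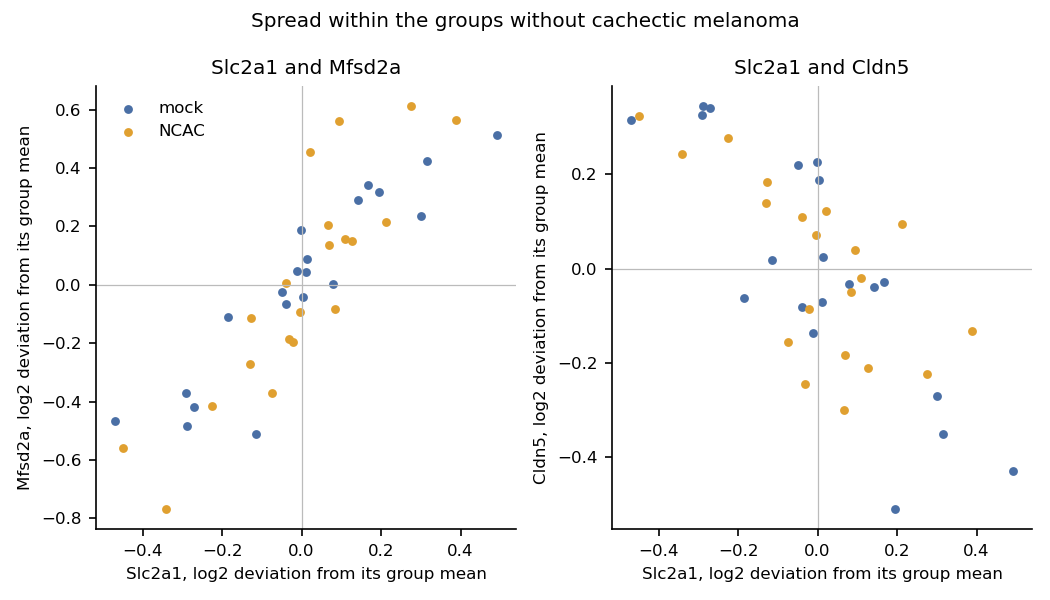
Deviation from the group mean of log2(TPM + 1) for Slc2a1 (x axis) against that of Mfsd2a (left) and Cldn5 (right) in the 20 mock (blue) and 20 NCAC (yellow) libraries, 1 point per library. Mfsd2a rises with Slc2a1 in both sets (r = 0.915 and 0.872). Cldn5 falls as Slc2a1 rises in mock (r = -0.83), while in NCAC (r = -0.668) the relation did not pass (adjusted permutation p = 0.0717).

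Genes that act beside the 39 were read from 6 further lists, at 8 wk against mock. The counts stand beside the 20.8% of all tested genes called in this comparison, 13.4% higher and 7.34% lower, and nothing particular to a list is read from a share near these. Of 12 tested growth factor ligands and co-receptors, 1 was higher and 3 lower. Apln, the ligand of the apelin receptor, averaged 12.5 against 16.9 TPM (-0.41 ± 0.10, adjusted p = 0.00241), Vegfb, a ligand of Flt1, 90.99 against 103 TPM (-0.18 ± 0.04, adjusted p = 0.00277) and Nrp1, a co-receptor of Kdr, 6.19 against 8.28 TPM (-0.38 ± 0.10, adjusted p = 0.0037). Flt4, the lymphatic VEGF receptor gene, was the higher one, at 0.23 (adjusted p = 0.0106). The list's median was -0.11, beside 0.02 over all tested genes.

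Of 15 genes of barrier Wnt signalling, 3 were higher and 2 lower. Ndp, the ligand norrin, fell, with 18.4 against 25.3 TPM (-0.45 ± 0.09, adjusted p = 2.08e-04), and Tcf7, a nuclear effector, was lower by a fold change of -0.35 (adjusted p = 0.00518). Nkd1, an inhibitor that the pathway itself induces, was higher (0.39 ± 0.09, adjusted p = 8.38e-04), as was the coreceptor gene Lrp5 (0.25, adjusted p = 0.0158). Of 10 other junction genes 1 was higher, Cldn12 (0.17, adjusted p = 3.32e-04), and 1 lower, Jam2 (-0.23, adjusted p = 0.00545).

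Of 12 other barrier transporters 4 were higher and 1 lower. The insulin receptor gene Insr had a fold change of 0.21 (adjusted p = 1.39e-04), the organic anion pump gene Abcc4 of 0.31 (adjusted p = 0.00278) and Slc3a2, the partner chain of Slc7a5, of 0.17 (adjusted p = 0.00379). The glutamine transporter gene Slc38a3 was lower (-0.26, adjusted p = 3.95e-04). Of 18 other endothelial genes 5 were higher and 2 lower, among them Ramp2, a partner of the adrenomedullin receptor, at 22.8 against 12.2 TPM (0.80 ± 0.21, adjusted p = 0.00375), the guidance receptor gene Robo4 (0.32, adjusted p = 0.00105) and Cyyr1 (0.33, adjusted p = 0.00646), with the caveolin gene Cav1 lower (-0.30, adjusted p = 0.00576). None of 9 genes of arterial and venous identity was called by limma, with 2 at an unadjusted p under 0.05.

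Markers of neighbouring cells were read in the same comparison. None of 10 mural cell markers, for pericytes and smooth muscle, was called by limma (1 at an unadjusted p under 0.05), and their sum lay at 215 to 285 TPM in CAC and 261 to 288 TPM in mock. Of 3 tested perivascular macrophage markers, Lyve1 (0.60, adjusted p = 0.0119) and Pf4 (0.72, adjusted p = 0.0141) were higher, with list sums of 6.29 to 10.7 TPM in CAC and 3.91 to 6.42 TPM in mock. Of 9 markers of astrocytes and Bergmann glia, whose endfeet cover the vessels, 3 were higher and 2 lower, among the latter the endfoot water channel gene Aqp4 at 175 against 254 TPM (-0.57, adjusted p = 3.54e-04). Of 10 microglial markers 3 were lower, and of 5 oligodendrocyte markers 4 were lower. The microglial sum averaged 247 TPM in CAC (221 to 288), 300 TPM in mock (216 to 430) and 212 TPM in NCAC (187 to 225). The CAC mean was thus below that of mock at 8 wk but above that of NCAC, and mock averaged 225 TPM at 2 wk. None of 10 choroid plexus markers was called by limma (1 at an unadjusted p under 0.05), but their sum ranged from 2368 to 7005 TPM in CAC and from 2825 to 5578 TPM in mock. The part of these cells in the endothelial values was not tested, except that with the choroid plexus level as a covariate 17 of the 39 genes were still called, 10 higher and 7 lower.

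The calls differed in how they held under other processing. Of the 17 genes called against mock at 8 wk, 10 were called under every one of 22 alternatives run (Esam, Kdr, Vwf, Podxl, Ly6c1, Slc2a1, Slco1a4, Abcb1a, Gkn3 and Pglyrp1), and 7 were lost under at least 1 (Tie1, Eng, Slc16a1, Slco1c1, Mfsd2a, Itm2a and Plvap). Against NCAC at 8 wk, 8 of 18 were called under every alternative (Esam, Vwf, Podxl, Ly6c1, Ly6a, Slc2a1, Gkn3 and Pglyrp1). At 6 wk this held for none of 4 against mock and for Vwf and Ly6c1 of 7 against NCAC.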

How the data were processed

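Cerebellum RNA was measured in 62 libraries, made with a stranded mRNA kit per the labels' protocols. The authors deposited 1 table of TPM values per gene symbol. Per the submitters' processing notes the build was mm10; which aligner, quantifier and gene models made the table is not given in the sources used here. Each TPM column sums to 1000000, so depth is unknown, no counting interval or floor is given, and a rise of 1 abundant transcript pushes the rest down. Groups and replicate numbers came from the sample descriptions. The extraction text also mentions another tumour model, which disagrees with the design and was not used.

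Levels were analysed as log2(TPM + 1) for genes with a mean TPM of at least 1. A single limma 3.58.1 model (R 4.3.3) held all 12 groups (eBayes with trend, 50 residual degrees of freedom, no covariate), over 15 comparisons with two-sided p-values adjusted by Benjamini-Hochberg at 0.05. The fit was tested on simulated data. The alternatives changed the pseudocount to 0.1, dropped the filter or raised it to 5 TPM, rescaled the libraries by median-of-ratios or quantiles, removed the mitochondrially encoded genes, added a choroid plexus covariate or a replicate block, fitted the compared groups alone, or left out each library in turn. The 39 genes, the lists, the patterns and the tests were chosen with earlier results of these data known. Full values were given for genes called in CAC against mock or NCAC at 6 or 8 wk, and further lists by up to 4 genes with the smallest p. Promoters came from RefSeq, for genes with small p that have an entry within 1000 bases of the GENCODE M21 gene start, which left out Abcb1a and Pglyrp1.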

Additional observations from a re-analysis of the deposited data

Results flagged for a closer look

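In groups of 4 to 10 libraries, the highest or lowest library was set against its nearest neighbour and the range of the group by Dixon's criterion for the 23 genes called at 6 or 8 wk; 11 of 138 groups had such a library, where chance gives about 1 in 20. At 8 wk these were Vwf in mock replicate 5 at 8.20 TPM (next 5.51), Mfsd2a in CAC replicate 3 at 12.4 TPM (next 29.7), Gkn3 in CAC replicate 3 at 7.70 TPM (next 3.12), Esam in NCAC replicate 2 at 16.8 TPM (next 14.4), Ly6c1 in NCAC replicate 5 at 44.8 TPM (next 50.4), Slco1a4 in mock replicate 3 at 38.7 TPM (next 44.0) and Plvap in mock replicate 2 at 44.8 TPM (next 39.2). At 6 wk they were Ptprb in NCAC replicate 2 at 19.1 TPM (next 17.3), Icam1 in CAC replicate 2 at 7.20 TPM (next 4.43), Gkn3 in mock replicate 1 at 5.65 TPM (next 10.6) and Nos3 in mock replicate 4 at 7.54 TPM (next 5.96).

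The difference between CAC and mock changed from 2 to 8 wk, tested as an interaction in limma, for Vwf (1.22, adjusted p = 0.00253), Ly6c1 (0.85, adjusted p = 0.00253), Podxl (0.75, adjusted p = 0.0247) and Abcb1a (0.31, adjusted p = 0.0338). The Abcb1a call was lost under 11 of 31 alternatives and the Podxl call under 2 of 31.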

How the results depend on the processing

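Over 137 gene results and 2885 recomputed values, 2685 kept their side of the threshold, 144 lost a call and 56 gained one. Many of these results were not called at first and could not lose a call. Of those called against mock, 4 of 4 at 6 wk and 7 of 17 at 8 wk were lost under at least 1 alternative. Against NCAC this was so for 5 of 7 and 10 of 18, and for the change from 2 to 8 wk for 2 of 4. No called gene changed sign, but the fold changes of 20 results that were not called did so in 56 of these values, none of which was called and all with a reported fold change of at most 0.09 in size. Fitting only the compared groups, which leaves fewer libraries to estimate the spread, changed the counts of called genes from 4 to 0 in CAC against mock at 6 wk, from 17 to 10 at 8 wk, from 7 to 3 in CAC against NCAC at 6 wk, from 18 to 8 at 8 wk, and from 4 to 2 for the change from 2 to 8 wk. Leaving out 1 library at a time gave 3 to 6, 12 to 18, 3 to 10, 14 to 21 and 2 to 9 called genes in those comparisons. The share of all tested genes called in these fits is not given here. These moves are therefore not read as particular to the endothelial genes. Fitting the compared groups alone also takes the spread from those groups only, and the groups differed in spread. At 6 wk the SD of Vwf was 3.24 TPM in CAC, 0.445 TPM in mock and 0.447 TPM in NCAC. For Ly6c1 it was 17.6, 3.39 and 2.44 TPM, but for Gkn3 2.55, 2.58 and 2.81 TPM. The part of a wider spread in CAC in the lost calls was not tested. The 10 comparisons with 0 called genes stayed at 0 under all alternatives run. Same-numbered libraries were treated as unpaired in the main fit. The correlation of their deviations ranged from -0.239 to 0.396, was over 0.1 in 16 of 60 pairs and was best with the own number in 17. In CAC against NCAC it was over 0.1 in 4 of 5 pairs at 2 wk and in 3 of 5 at 4 wk. In CAC against mock this was so in 0 of 5 pairs at 2, 6 and 8 wk. Whether libraries of some weeks are paired is not settled by these values. A block for the replicate number joins same-numbered libraries of all weeks and groups, so it does not test pairing within a week. Numbers 6 and 7 occur only in CAC at 8 wk, and the block takes up these 2 libraries. Counts with the block at 8 wk thus rest on the other 5 CAC libraries, and the part of this in the lower counts was not tested. With the replicate number as a block, 11 genes were called against mock at 8 wk (9 higher, 2 lower), 13 against NCAC at 8 wk (11 higher, 2 lower) and 7 against NCAC at 6 wk (6 higher, 1 lower), so the numbers of lower genes dropped from 7, 4 and 2; of the totals only the first moved by more than 1.5 times. Under median-of-ratios scaling, quantile normalization and removal of mitochondrially encoded genes, 9 were higher and 9 lower against mock at 8 wk. For the block and these settings, too, the share of all tested genes is not given here. Nothing particular to the endothelial genes is read from their counts. With 5 libraries in most groups and no depth in TPM, differences smaller than the intervals given cannot be shown or denied.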
